A study of Danio rerio with 6 samples.

Results

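Transcripts of genes that the tumour suppressor p53 switches on to restrain itself and to hold the cell cycle were followed in heads of slbp1 mutant zebrafish embryos. The set was chosen by gene symbol and held 9 names, mdm2, ccng1, phlda3, sesn1, sesn3, rps27l, aen, zmat3 and btg2. Of these, 8 were matched to 1 Ensembl gene each, out of 32520 genes in the count table, and aen was not analysed here. The mutants were slbp1-/- embryos and the comparison group their wildtype siblings, both under the name rw440 in the titles, with heads taken at 2 days post fertilization and 3 RNA libraries in each group. The labels name no other allele, agent or transgene, and they give neither the strain background, nor how many heads went into a library, nor whether libraries came from separate clutches, so a p-value here speaks only of spread from library to library, which may be technical. The protein made from slbp1 (symbol slbp) holds the stem-loop with which histone mRNAs of S phase end.

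In unstressed cells p53 is kept low by Mdm2, a ubiquitin ligase that marks it for destruction and whose own gene is a p53 target, which closes a negative feedback loop. When DNA is damaged or replication stalls, p53 accumulates and its targets stop the cell cycle, aid repair, damp growth signalling or start cell death. Much of this control acts on the p53 protein, which RNA counts do not measure. The role of each gene given here is known chiefly from mammals.

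The libraries held between 3421961 and 5395071 counts, so that 3 counts corresponded to between 0.519 and 0.776 CPM (counts relative to the library total, with TMM factors for composition). These limits cover counting error only. The slbp transcript was present in every mutant library, at 144.4 to 182.8 CPM against 87.2 to 104.4 CPM in siblings, and since the labels do not describe the lesion this does not check the genotypes. On the second principal component mutant replicate 3 was at -43.2 and the other mutants at 23.6 and 34.3. All 15 head marker genes were expressed well enough to be tested, while the 11 genes of the posterior trunk list summed to 0 CPM in every sibling library and to 1.18 to 2.08 CPM in mutants, and 4 of them had no count anywhere. In bulk tissue, fewer cells of a type and less RNA per cell cannot be told apart.

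Of the 8 matched genes, 4 rose in mutant heads, namely rps27l, ccng1, mdm2 and btg2, and 0 fell. The genes for phlda3, sesn1 and sesn3 were tested and did not pass, and zmat3 had too few counts to be tested. A gene counted as called when its adjusted p in edgeR's quasi-likelihood test was under 0.05. Among all 15561 genes tested, 25.7% were called, 12.9% higher and 12.8% lower in mutants. Scaled by total counts alone, 1095 genes were higher and 2787 lower, against 2015 and 1989. The 7 tested genes had a median log2 fold change (mutant minus sibling) of 0.80, against 0.0045 over all genes tested. They reached the test through a filter on low counts, so zmat3 is missing from that median.

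**Figure D1:**
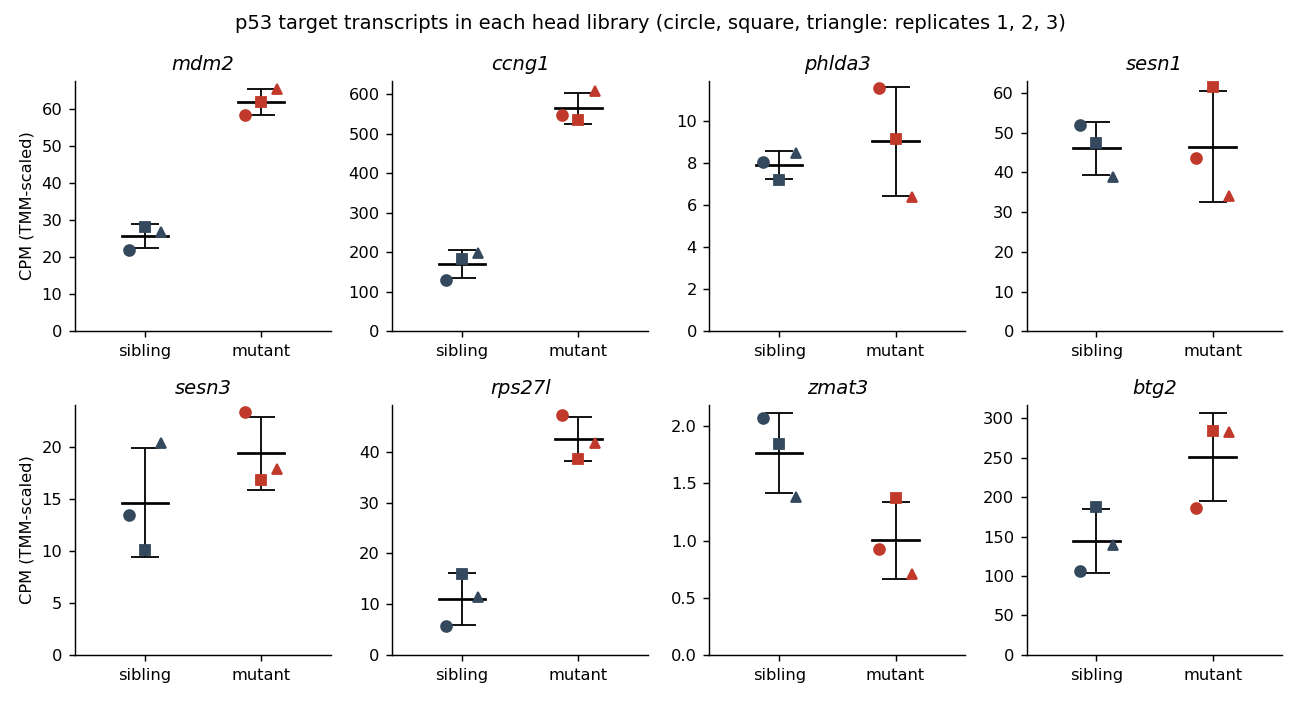
Level of each matched p53 target in each library, in TMM-scaled CPM on axes that start at 0; points are libraries (circle, square and triangle for replicates 1, 2 and 3), bars the mean and SD of 3 libraries. The mutant points are all above the sibling points for mdm2, ccng1 and rps27l, and the groups overlap for btg2, phlda3, sesn1 and sesn3. zmat3 lies under 2.1 CPM in every library, with all mutant points narrowly below the sibling points.

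mdm2 (ENSDARG00000033443), the gene of the ubiquitin ligase that restrains p53, stood at 58.4, 62.0 and 65.4 CPM in mutant replicates 1 to 3 and at 22.0, 28.2 and 26.8 CPM in the siblings. All 3 mutant libraries lay above all 3 siblings, as they did for 21.8% of genes tested; groups were apart in either direction for 43.6%. The means were 61.9 ± 3.53 and 25.7 ± 3.27 CPM (SD, n = 3), a 2.40-fold difference. On the log2 scale mutants were higher by 1.26 ± 0.17 (SE), at an edgeR quasi-likelihood adjusted p of 0.000276. Its change ranked at the 94.6th percentile of all genes tested. The call held in each alternative analysis, with a log2 fold change between 0.9998 and 1.34.

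ccng1 (ENSDARG00000076667) encodes cyclin G1, a p53 target that in mammals brings a phosphatase to Mdm2 and thereby also feeds back on p53. Mutant libraries had 548, 535 and 609 CPM and sibling libraries 129, 183 and 197 CPM. Every mutant library was above every sibling library by a wide margin. The means of 564 ± 39.5 and 170 ± 36.1 CPM (SD, n = 3) differed 3.32-fold, or by 1.73 ± 0.20 (SE) on the log2 scale, at an edgeR quasi-likelihood adjusted p of 7.25e-05.

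ccng1 lies on the same chromosome as slbp, with 111 protein-coding genes between them in the gene order of the RefSeq assembly GRCz12tu, which is not the assembly the counts were made on. Mutants and siblings were separated by their slbp genotype and may therefore also differ in linked alleles near it. Only genes whose symbol was unique in both the RefSeq assembly and the count table were used as neighbours of ccng1. Of the 20 such tested genes nearest to it, 10 on either side, 5 were higher, 3 lower and 12 not called. This was 8 of 20, against 25.7% of all genes. The genes next to ccng1 in this order were named after their values were seen. On one side, si:dkey-6i22.5 and then rad9a were called higher, at 1.79 and 1.47 on the log2 scale. On the other side nudcd2 was called higher, at 0.76. The genes beyond these, spon2a and atp7a, were not called, at -0.57 and -0.37. The part of linked alleles in the ccng1 difference was not tested. None of the other 7 matched genes is on that chromosome in this assembly.

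rps27l (ENSDARG00000100513) encodes a ribosomal protein relative that in mammals is a p53 target and binds Mdm2. It had 47.2, 38.6 and 41.8 CPM in mutants against 5.69, 15.9 and 11.4 CPM in siblings. Every mutant library was above the highest sibling, and the siblings varied widely among themselves. The means were 42.5 ± 4.39 and 10.99 ± 5.10 CPM (SD, n = 3), the log2 fold change was 1.92 ± 0.29 (SE) and edgeR's quasi-likelihood adjusted p was 0.000508. At 3.79-fold it was the largest change of the 7 tested genes, and without sibling replicate 1 it was 1.63 on the log2 scale.

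Reads of rps27l could be confused with those of its abundant relatives rps27.1 and rps27.2, core ribosomal protein genes, since the treatment of reads that fit several genes is not given in the sources used here. Neither relative was called, at log2 fold changes of 0.48 and 0.31 and edgeR quasi-likelihood adjusted p of 0.191 and 0.366. Both were highest in mutant replicate 3, at 1424 and 637 CPM. The ratio of rps27l counts to the summed counts of both relatives was 0.0394, 0.0357 and 0.0203 in mutants and 0.00654, 0.0126 and 0.0108 in siblings. The mutant ratios were all higher, and lowest in replicate 3.

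btg2 (ENSDARG00000020298) encodes an antiproliferative protein of the BTG/TOB family that in vertebrate brains also marks progenitors about to produce neurons. Mutant libraries had 187, 284 and 282 CPM, and sibling libraries 107, 187 and 139 CPM. The groups met at 187 CPM, where mutant replicate 1 lay just under sibling replicate 2, so they were not fully apart. The means were 251 ± 55.7 and 144.3 ± 40.4 CPM (SD, n = 3), a log2 difference of 0.80 ± 0.22 (SE) at an edgeR quasi-likelihood adjusted p of 0.0204. This call was the least stable of the 4. By the same test it was lost without mutant replicate 2 (adjusted p = 0.0747), without mutant replicate 3 (0.0634), without sibling replicate 1 (0.0933), without sibling replicate 3 (0.0820) and when libraries were scaled by total counts alone (0.0759).

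Markers of neurogenic progenitors and immediate early genes, with which btg2 is classed elsewhere, were read beside it. Of 13 tested genes matched to the neurogenic progenitor list, 5 rose and 0 fell, or 38.5% called against 25.7% of all genes. Their median log2 fold change was 0.55, and their sum ran from 2223 to 3079 CPM in mutants and 1577 to 1961 CPM in siblings. The listed dla was not matched. The listed dld was matched only through the upper-case symbol DLD, which is shared with a mitochondrial enzyme gene. These values may therefore include an enzyme gene. Of 12 tested immediate early genes 1 rose and 2 fell, or 25.0% called, a share near that of all genes, with a median of -0.23, and their sums overlapped, at 213 to 303 CPM in mutants and 245 to 307 CPM in siblings. None of these genes was at 0 in all libraries. The part of progenitor number in the btg2 difference was not tested.

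The targets that damp growth signalling did not pass the test. sesn1 (ENSDARG00000020693) encodes a sestrin, an inhibitor of the growth kinase complex mTORC1, and had 43.8, 61.6 and 34.0 CPM in mutants and 52.0, 47.4 and 38.8 CPM in siblings. The mutant libraries spanned the whole sibling range. Its log2 fold change was 0.016, with a 95% interval from -0.46 to 0.49 and an edgeR quasi-likelihood adjusted p of 0.966.

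sesn3 (ENSDARG00000015822), a sestrin gene that in mammals is chiefly driven by FoxO factors, had 23.4, 16.9 and 17.9 CPM in mutants against 13.5, 10.1 and 20.4 CPM in siblings. Sibling replicate 3 lay above 2 of the 3 mutant libraries. The log2 fold change of 0.40 had a 95% interval from -0.21 to 1.01 and an edgeR quasi-likelihood adjusted p of 0.328, an interval that holds both no change and a rise of up to 1.01.

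phlda3 (ENSDARG00000037804) encodes a small pleckstrin homology protein that competes with the kinase Akt at the membrane. It was a low transcript, with 11.6, 9.12 and 6.38 CPM in mutants, from 50, 40 and 27 counts, and 8.02, 7.19 and 8.48 CPM in siblings. The mutant libraries again enclosed the siblings. The log2 fold change was 0.19 with a 95% interval from -0.47 to 0.86 and an edgeR quasi-likelihood adjusted p of 0.689. For both phlda3 and sesn1 the sign turned when libraries were scaled by total counts alone, which moved the median of all genes to -0.26.

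zmat3 (ENSDARG00000080021), which encodes a zinc finger RNA-binding protein, was near the limit of detection. It had 4, 6 and 3 counts in mutants and 8, 10 and 8 in siblings, or 0.708 to 1.37 CPM against 1.38 to 2.07 CPM. It was the only matched gene of the set with a lower mutant mean. All mutant libraries lay below all siblings, though narrowly, as they did for 21.8% of genes tested. With no low-count filter its log2 fold change was -0.80 ± 0.78 (SE) and the adjusted p 0.540 by edgeR's quasi-likelihood test. The difference thus did not pass the test at this depth.

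**Figure D2:**
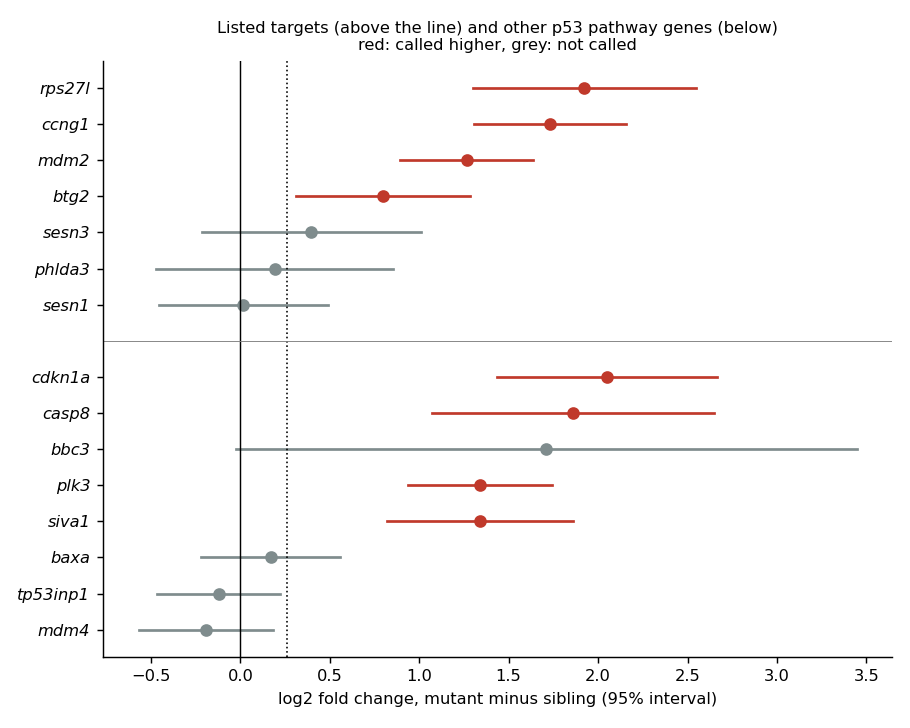
Log2 fold change, mutant minus sibling, with 95% intervals from edgeR for the tested targets above the line and for other p53 pathway genes below it, chosen after their values were seen; red marks called genes and grey those not called. The dotted line shows where no change would lie if libraries were scaled by total counts alone, and the intervals of mdm2, ccng1, rps27l and btg2 lie to its right. No gene called lower is shown. RRM2B, tob1b and the GADD45G gene ENSDARG00000019417, called lower in the arrest and repair list, are left out, as are some genes called higher. The intervals come from the TMM-scaled fit and are not adjusted for the number of genes. In the fit scaled by total counts alone btg2 was not called (edgeR quasi-likelihood adjusted p = 0.0759).

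In all 4 called genes sibling replicate 1 was the lowest of the 6 libraries. Likeness of pattern was measured as the root mean square difference of log2 CPM over the 6 libraries, each gene centred on its own mean. mdm2 was closest to ccng1, at 0.27, and then to btg2, at 0.31. ccng1 and rps27l were also 0.31 apart. phlda3 was nearest to sesn1, at 0.30, while sesn1 and rps27l were farthest apart of all pairs, at 1.17. These distances largely hold the difference between the groups, so they say little about variation within a group.

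Among all tested genes with a plain symbol, the 5 closest to mdm2 by this measure over the same 6 libraries were phc1, SRBD1, ATAD2, SP1 and cdca8, at distances from 0.07 to 0.08. phc1 encodes a Polycomb subunit, ATAD2 a chromatin protein of dividing cells and cdca8 a subunit of the chromosomal passenger complex of mitosis. The distance largely holds the difference between the groups, so these genes were picked for a change like that of mdm2. Their calls are therefore no separate result. All 5 were called higher, with log2 fold changes from 1.15 to 1.29, against 1.26 for mdm2. cdca8, for instance, had 197, 190 and 227 CPM in mutants and 80.7, 97.4 and 95.02 CPM in siblings.

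Of 20 genes for relatives and regulators of p53, all tested, 3 rose and 0 fell, a share of 15.0% against 25.7% of all genes, with a median log2 fold change of 0.17. In the higher direction alone, 12.9% of all genes were called, close to the share of this list. The 3 genes called higher were chek2, the kinase gene CHK2 (1.41), the p53-binding protein gene TP53BP1 (0.68) and the damage kinase gene ATM (0.64 on the log2 scale). Their calls were not firm: ATM was called in 3 of 14 alternatives and lost with any 1 library left out, TP53BP1 in 9 and chek2 in 10. The call on TP53BP1 was lost without mutant replicate 2 or 3 or sibling replicate 1 or 3, and that on chek2 without mutant replicate 3 or sibling replicate 1 or 2. Without mutant replicate 3, or without sibling replicate 1, the list had 0 calls by edgeR's quasi-likelihood test, and scaled by total counts alone it had 0 higher and 1 lower. The related TP63 and TP73 were not called, at -0.20 and -0.43 with edgeR quasi-likelihood adjusted p of 0.593 and 0.558.

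mdm4, the gene of an Mdm2 relative that binds p53 and restrains it, was not called. It had 36.8, 49.7 and 43.2 CPM in mutants and 52.3, 45.2 and 50.9 CPM in siblings. The groups overlapped, with a log2 fold change of -0.19, a 95% interval from -0.57 to 0.18 and an edgeR quasi-likelihood adjusted p of 0.453. Within each library the count ratio of mdm2 to mdm4 was 1.58, 1.25 and 1.51 in mutants and 0.422, 0.625 and 0.528 in siblings. This ratio does not depend on how libraries are scaled, and it was 2.78-fold higher in mutants.

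**Figure D3:**
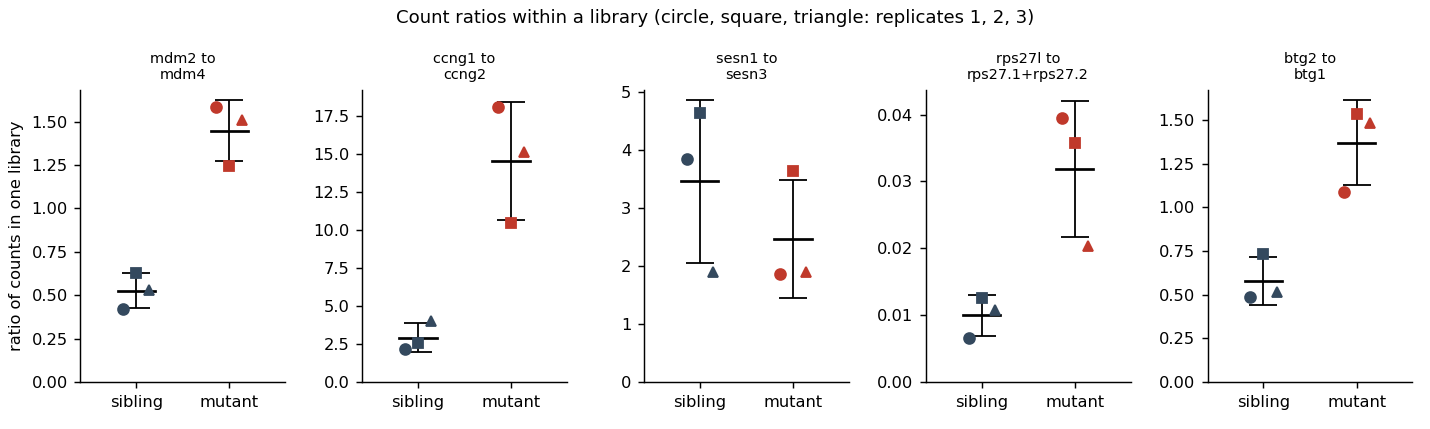
Ratio of the counts of a p53 target to those of a related gene in the same library, on linear axes that start at 0; points are libraries by replicate, bars the mean and SD of 3. Mutant and sibling ratios are apart for mdm2 to mdm4, ccng1 to ccng2, rps27l to its relatives and btg2 to btg1, and they overlap for sesn1 to sesn3.

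Such ratios were formed for 5 pairs of relatives. ccng1 to ccng2 was 18.1, 10.4 and 15.1 in mutants and 2.17, 2.56 and 3.99 in siblings. btg2 to btg1 was 1.09, 1.54 and 1.49 in mutants and 0.485, 0.733 and 0.515 in siblings. Lower levels of the relatives in mutants enter both of these ratios. BTG1 had 171, 185 and 190 CPM in mutants against 220, 255 and 270 CPM in siblings. CCNG2 had means of 40.5 and 60.0 CPM, with overlapping libraries. sesn1 to sesn3 overlapped, at 1.87, 3.63 and 1.89 against 3.84, 4.64 and 1.89. With 3 libraries against 3, the exact two-sided permutation test cannot go below p = 0.1, the value it gave for the 4 ratios whose groups were apart (adjusted p = 0.125 over the 5), and it gave 0.2 for sesn1 to sesn3.

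Relatives of the 9 genes, from a list of their paralogs, were called at a share near that of all genes, 28.6% against 25.7%. Of 21 tested, 1 rose, 5 fell and 15 were not called, with a median log2 fold change of -0.33. Among all genes tested, 12.9% were called higher and 12.8% lower. btg3, an antiproliferative relative of btg2, rose by 0.97 on the log2 scale. The fallers were CCNI, a cyclin I gene, CCNI2, tob1b of the BTG/TOB family, PHLDA1 and 1 of both ZMAT4 genes (ENSDARG00000092987), with log2 fold changes from -2.07 for ZMAT4 to -0.59 for tob1b. When any 1 library was left out, 2 to 3 of the list were called. Each of these 6 calls was lost in at least 1 such fit, CCNI without mutant replicate 1 alone. CCNG2 and BTG1 were at -0.57 and -0.45 and did not pass, with edgeR quasi-likelihood adjusted p of 0.0679 and 0.0503, and sesn2 was at -0.40 (0.543).

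The remaining relatives were not called either. PHLDA2 stood at -0.02, TOB1 at -0.20, ZMAT2 at -0.33, zmat5 at -0.39, zmat1 at 0.44 and the other ZMAT4 gene at -0.39 on the log2 scale. The nuclease genes isg20, isg20l2 and rexo4, relatives of aen, were at 0.33, 0.20 and 0.58. BTG4 had a count in 1 mutant library only and was not tested.

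**Figure D4:**
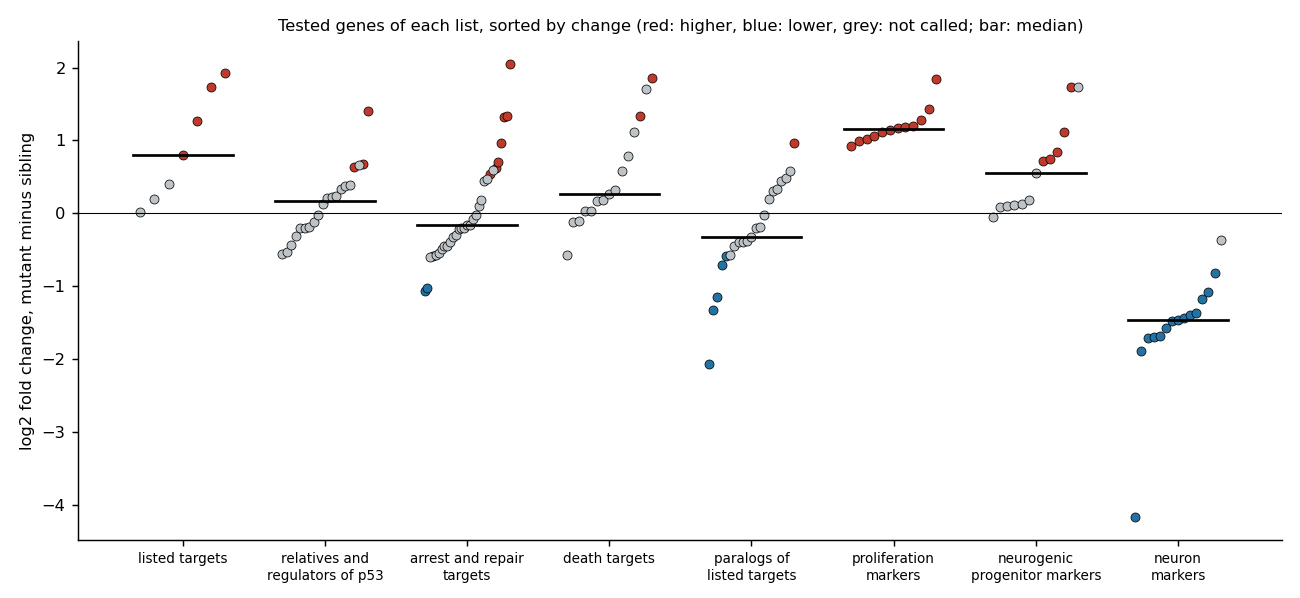
Log2 fold change of every tested gene in 8 lists, sorted within each list; red points are called higher, blue called lower, grey not called, and the bar is the list median. The 7 tested targets of the set lie above 0, sesn1 only at 0.016. The signs of sesn1 and phlda3 turned in some alternative analyses. zmat3, with a lower mutant mean, was not tested and is not shown. The lists of p53 relatives and regulators, arrest and repair targets, death targets and paralogs hold genes on both sides of 0. All 12 proliferation markers lie above 0, and all 15 neuron markers below it.

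Other genes of arrest and repair, listed here as p53 targets, were split. Whether p53 drives each of them in these heads was not tested. Of 31 tested, 7 rose, 3 fell and 21 were not called, or 32.3% called against 25.7% of all genes, with a median of -0.16. The list shares btg3, which rose, and tob1b, which fell, with the list of relatives. The cell cycle inhibitor gene cdkn1a, the best known arrest target of p53, had 18.3, 15.1 and 13.9 CPM in mutants and 3.88, 3.87 and 3.63 CPM in siblings. The mutants were all higher, by 2.05 ± 0.28 (SE) on the log2 scale, with an edgeR quasi-likelihood adjusted p of 0.000303.

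The stress kinase gene PLK3 rose by 1.34 and the damage-bypass polymerase gene POLH by 0.71 on the log2 scale. Of 3 genes annotated GADD45G, a family of growth arrest genes, ENSDARG00000113103 rose by 1.32 and ENSDARG00000016725 by 0.54, while the third, ENSDARG00000019417, fell by 1.03 and was named after its values were seen. The call on ENSDARG00000016725 was lost without mutant replicate 1 or sibling replicate 1 or 3, and that on POLH without mutant replicate 1 or 3 or sibling replicate 1 or 2. The 4 genes for GADD45A and GADD45B were not called. RRM2B, a ribonucleotide reductase subunit gene, fell by 1.07 on the log2 scale, but its call was lost without mutant replicate 2 (adjusted p = 0.0888 by edgeR's quasi-likelihood test) and without sibling replicate 1 (0.130). Leaving out 1 library at a time left between 4 and 8 of the list called, the fewest without sibling replicate 1. Scaled by total counts alone, 3 rose and 6 fell.

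Of 15 death targets tested, 2 were higher and 0 lower, or 13.3% called against 25.7% of all genes, with a median of 0.26. Calls in the higher direction alone were 12.9% of all genes, near the share of this list. casp8, an initiator caspase gene, had 10.4, 12.1 and 6.85 CPM in mutants and 3.10, 2.58 and 2.42 CPM in siblings, a log2 fold change of 1.86 ± 0.36 (SE). SIVA1, a gene for a death receptor adaptor, had 37.3, 29.7 and 52.9 CPM against 17.6, 16.4 and 13.5 CPM, a log2 fold change of 1.34 ± 0.24 (SE). Both were called in every alternative. The pore-forming gene BAX was not called, at 49.1, 52.2 and 37.3 CPM against 38.6, 40.8 and 43.8 CPM.

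Markers of dividing cells moved with the called targets. All 12 tested proliferation markers rose, with a median log2 fold change of 1.16, and the list summed to between 8578 and 11179 CPM in mutants and between 3242 and 4548 CPM in siblings. Neuron markers went the other way, with 14 of 15 tested lower, a median of -1.47 and sums from 1051 to 1547 CPM in mutants against 2773 to 3604 CPM in siblings. Muscle markers were lower too (8 of 10 tested), at 25.7 to 57.9 CPM against 138.3 to 258.5 CPM. Of all genes tested, 12.9% were called higher and 12.8% lower. Sums of macrophage markers (0 of 6 tested called) and erythroid markers (1 of 6 higher) overlapped between the groups. The macrophage list held 17 matched genes, most too low to be tested, and 3 of them were at 0 in all libraries. No gene of the proliferation, neuron, muscle or erythroid lists was at 0 in all libraries.

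As a description, 5 genes were also expressed per 1000 CPM of summed proliferation markers in the same library, a measure chosen after the values were seen. These were the called genes of the set and cdkn1a, all already called higher in mutants. The tested phlda3, sesn1 and sesn3 were not put on this measure. The part of dividing cells in the differences was not tested. On this measure mdm2 stood at 6.79, 7.23 and 5.85 in mutants and 6.78, 6.20 and 6.57 in siblings. The groups overlapped and their means, 6.62 ± 0.71 and 6.52 ± 0.29 (SD, n = 3), differed by less than the spread between replicates (p = 0.8 by exact two-sided permutation test). With 3 libraries against 3 this test cannot show that there is no difference. The summed markers were higher in every mutant library, so dividing by them lowers the mutant values of any gene against siblings. The same sum divides each of the 5 genes. Which of them stay higher in mutants therefore follows largely from the fold changes already given. The values and p-values on this measure are no separate result, and they do not correct for the number of dividing cells.

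ccng1, with a larger fold change than mdm2, was higher in all mutants on this measure, at 63.7, 62.4 and 54.5 against 39.7, 40.3 and 48.2. So were rps27l, at 5.50, 4.49 and 3.74 against 1.76, 3.49 and 2.80, and cdkn1a, at 2.13, 1.76 and 1.25 against 1.20, 0.851 and 0.891. btg2 had the lower mean in mutants on this measure, with 21.7, 33.1 and 25.2 against 33.0, 41.2 and 34.0 in siblings, and the groups overlapped (p = 0.2 by exact permutation test). The exact permutation p was 0.1 for ccng1, rps27l and cdkn1a, the smallest possible with 3 against 3, and 0.167 after adjustment over the 5 genes. In mutant replicate 3 all 5 but btg2 had their lowest mutant value on this measure.

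**Figure D5:**
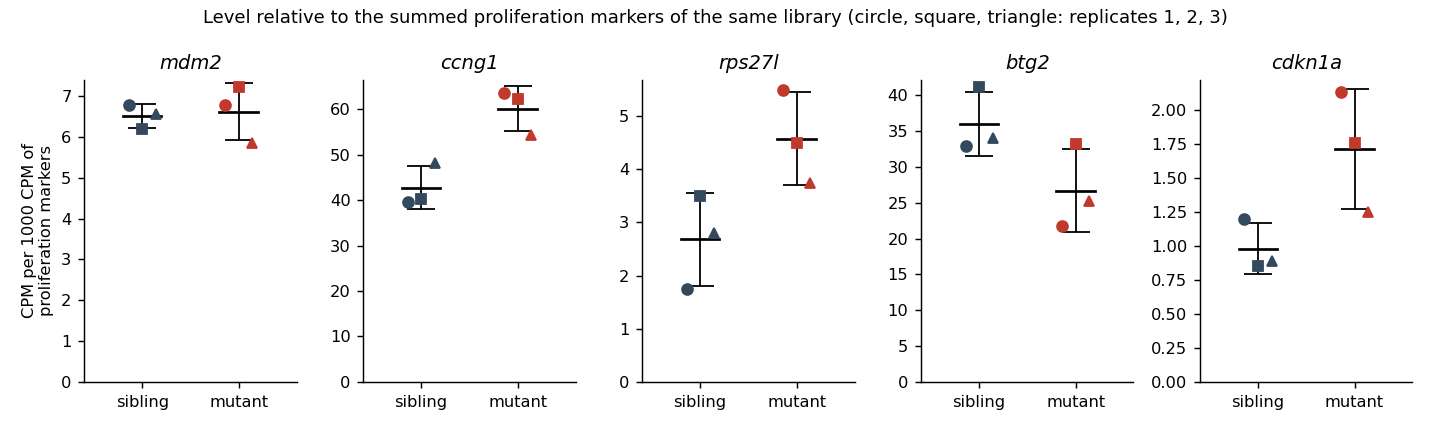
CPM of 5 genes that were called higher in mutants, per 1000 CPM of summed proliferation markers in the same library, on linear axes that start at 0. Points are libraries by replicate, bars the mean and SD of 3. Mutant and sibling points are mixed for mdm2 and overlap for btg2, and the mutants are all above the siblings for ccng1, rps27l and cdkn1a.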

How the data were processed

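The file deposited by the authors holds unnormalized counts for each Ensembl gene, 1 column per library, made with HISAT2 and featureCounts on GRCz11, per the submitters' processing notes. The annotation release, the strand setting and any selection of polyadenylated RNA were not given in the sources used here, so reads of a gene and of an antisense neighbour may be mixed. Of 32520 genes, 29201 had a symbol in the reference table, and a name found only in upper case took all genes with it.

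Counts were compared in R 4.3.3 with edgeR 4.0.16: filterByExpr, TMM factors from 0.788 to 1.14, quasi-likelihood test (robust, two-sided), Benjamini-Hochberg adjustment over all 15561 genes tested, threshold 0.05. A standard error is the log2 fold change divided by the square root of the F statistic. Intervals are at 95%. Distances used log2 CPM with a prior count of 2, and count ratios added 0.5 to each count. The procedure was also run on simulated data, and the outcome is not given here.

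The set and all lists were chosen with earlier results of these data known. By rule, the genes named are the 8 matched genes, the tested paralogs, up to 6 called genes per pathway list by lowest p, and the 5 genes nearest to mdm2. Other pathway genes and paralogs given with values, such as TP63, TP73, BAX, BTG4, bbc3 and both PPM1D genes, were chosen after their values were seen. No 2 libraries agreed within sampling noise (chi-square per degree of freedom 6.34 to 17.6). Alternatives used other size factors, filters, DESeq2 1.42.0, limma-voom (limma 3.58.1), each library left out and a replicate block. No sequences of these genes were used here, and 1 gene was left out of the pathway lists and is not reported here.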

Additional observations from a re-analysis of the deposited data

How the results depend on the processing

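Over 14 alternatives the calls on mdm2, ccng1 and rps27l held, with log2 fold changes of 0.9998 to 1.34, 1.46 to 1.85 and 1.63 to 2.27, and 3 or 4 of the set were called higher and 0 lower. The btg2 value ran from 0.54 to 1.03. With total counts alone as the scale, the median of all genes was -0.26; this gave 1095 higher and 2787 lower calls against 2015 and 1989, and called 1 of the relatives and regulators of p53 (0 higher, 1 lower). phlda3 then stood at -0.055, and at -0.033 without mutant replicate 1. sesn1, near 0, was -0.019 with upper quartile factors, -0.22 with total counts alone, -0.0066 with limma-voom, -0.24 without mutant replicate 2 and -0.10 without sibling replicate 3; neither gene was called in any alternative. The cause of these changes of sign was not tested.

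Leaving out 1 library, with fewer samples by construction, gave 2521 to 3763 calls (1363 to 1952 higher, 1158 to 1811 lower). It gave 0 to 2 relatives and regulators of p53, 4 to 8 arrest and repair targets, 2 death targets and 2 to 3 paralogs (-0.24 to 0.21 for sesn1 and -0.033 to 0.40 for phlda3). Of 17 other pathway genes named, 12 lost the call in at least 1 alternative and 0 turned sign.

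In a fit with replicate numbers as a replicate block 5059 genes were called, with 4 of the set among them, and sesn1 was at -0.013. The labels state no pairing, and deviations of same-numbered libraries correlated at 0.24, 0.09 and 0.18, so no pairing was assumed, although every library had its highest correlation with the library of its own number. The block called 14 arrest and repair targets, 6 of them lower. Depth limits zmat3, which in mutant replicate 3 had 3 counts (0.708 CPM).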

Other observations

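Some death targets were too low for a firm reading, and they are given as values, chosen after they were seen. bbc3, the gene for the death activator Puma, had 4.86, 7.98 and 1.89 CPM in mutants and 2.33, 0 and 2.25 CPM in siblings, with an edgeR quasi-likelihood adjusted p of 0.136. pmaip1, the gene for Noxa, was under 3.1 CPM in every library and was not tested. pidd1 was above all siblings in each mutant library, at 7.18, 7.30 and 10.2 against 4.92, 1.66 and 4.85 CPM, with an adjusted p of 0.0666 by the same test.

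Both PPM1D genes, which encode a phosphatase that switches the p53 response off, were measured. ENSDARG00000021380 had 13.2, 14.8 and 13.7 CPM in mutants and 21.7, 21.4 and 18.3 CPM in siblings, while ENSDARG00000009273 overlapped between the groups. Neither was called, with edgeR quasi-likelihood adjusted p of 0.0828 and 0.310.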
